A study of Fundulus heteroclitus with 5 samples.

Results

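The spot intensities of the *Fundulus heteroclitus* cDNA microarray cover 384 features, and the table of sum-normalized values that was deposited beside them lists 212. Among the 172 unlisted features, 80 were brighter than the dimmest listed feature, and these 80 are described here as the members. Brightness was the mean of 40 values, which were 4 spots in each of 2 dyes on 5 arrays. The members were chosen by this mean, so it is given as a description only, with no test. Of the 329 metabolic genes on the array, the study kept those with a mean signal above the negative controls and below the scanner's saturation, each by a set margin. The study kept 212 of them, which is also the number of listed features. If these are the same features, all 55 control genes are among the 172 unlisted ones. The files do not mark the control genes. The brightest member's mean was 41.8% of the highest value the scanner can write. This mean covers all 5 arrays, and in Cy5 at 50× all 4 spots of 5 members were at that highest value. Why a given member is unlisted was not analysed here.

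On a two-color cDNA microarray, labeled RNA hybridizes to printed DNA, and the scanner reads the fluorescence of each dye at each spot. A spot can report the amount of its RNA only while its fluorescence lies above the signal of spots with no matching RNA and below the highest value the scanner can write. Arrays of this kind therefore carry control spots beside the genes of interest. Positive controls give light for placing the grid, and negative controls, here cDNA of a ctenophore, give the signal without a matching RNA.

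Cardiac RNA of wild-caught, laboratory-acclimated *F. heteroclitus* was amplified with amino allyl UTP, coupled to Cy3 or Cy5, and hybridized at 0.1×, 1×, 5×, 10× and 50× of the usual RNA concentration. All groups share this tissue and labeling, and concentration is the only difference given between them, with 1 array at each. According to the series design, the array was printed with 55 control genes and 329 cDNAs for proteins of cellular metabolism, and Cy5 was used at 18% less than Cy3. The number of fish behind the RNA is not given in the sources used here. The files pair feature numbers with neither gene names nor control types, so members are named by number, their sequences are not shown, and cardiac marker genes could not be checked. With 1 array per concentration no difference between concentrations has a replicate array behind it. The SDs below are over the 4 spots of a feature, or over 4 recomputations that each used 1 spot per feature, and they cover technical error within an array only.

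The members spanned a wide range of fluorescence, from 821 to 27413 arbitrary units, with a median of 1018. Most lay close to the bound. There were 30 members under 900, 39 under 1000 and 59 under 2000, and 20 members at or above 4000. The listed features ranged from 815 to 15607 with a median of 1838. At the bound, the dimmest listed feature had a mean of 814.625. Features 148 (820.6), 59 (821.4) and 101 (827.8) were the members just above it. Features 364 (814.575), 208 (814.55) and 11 (813.2) were the unlisted features just below it. Taken from 1 spot per feature, the number of members above the lowest listed feature was 69, 80, 77 and 67 for the 4 spot sets, and 55 members were above it in all 4.

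Feature 148, the dimmest member, had Cy3 fluorescence of 163, 115, 154, 281 and 964 at 0.1×, 1×, 5×, 10× and 50×, with SDs of 20.1, 28.0, 19.1, 44.9 and 139 over 4 spots. Its Cy5 fluorescence was 1384, 1301, 1468, 540 and 1836 (SD 68.3, 99.6, 156, 41.4 and 217). Feature 59 had Cy3 values of 122, 125, 133, 257 and 1002 and Cy5 values of 1497, 1214, 1453, 536 and 1876. Feature 364, which missed the bound, had 131, 123, 150, 268 and 1100 in Cy3 and 1086, 1150, 1301, 487 and 2350 in Cy5. At 50× feature 364 was the brightest of these 3 in both dyes, and at 0.1× it was the dimmest of them in Cy5.

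The members fell into 3 sets by brightness and dye, which were drawn after their values were seen and are used for description only. The 20 brightest had means of 4597 to 27413, and the next member had 2494. A set of 6 members, features 26, 74, 138, 204, 244 and 355, was high in Cy3 only: Cy3 was over 3 times the median of all 384 features on at least 3 of the 4 arrays from 0.1× to 10×, while Cy5 was under 1.5 times the median on all 4. The other 54 members had means of 821 to 2494 with a median of 887. The plot of fluorescence by array shows the 3 sets.

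**Figure D1:**
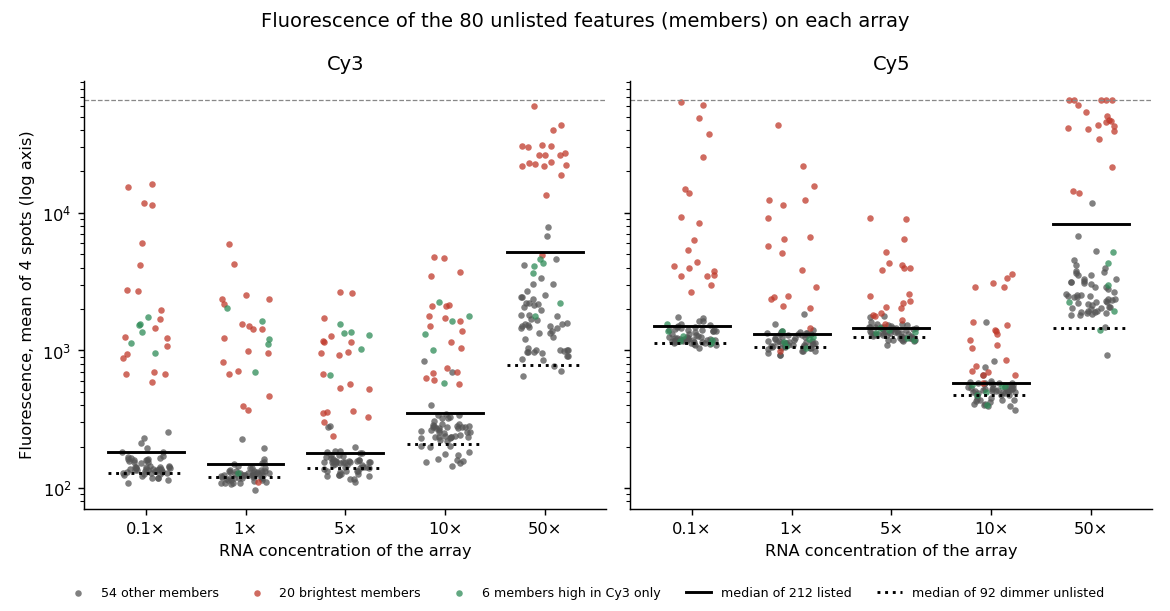
Fluorescence (mean of 4 spots, arbitrary units, log axis) of each of the 80 members in Cy3 (left) and Cy5 (right) on the arrays at 0.1× to 50× RNA. Solid bars are medians of the 212 listed features, dotted bars are medians of the 92 dimmer unlisted features, and the dashed line is the scanner ceiling, the highest value it can write. Most of the 54 other members lie near or between the bars, and in Cy5 at 50× a mean on the ceiling is shown by 5 of the 20 brightest.

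The median member was dimmer than the median listed feature on every array in both dyes. The members' median Cy3 fluorescence was 159, 132, 161, 284 and 2158 from 0.1× to 50×, against 184, 151, 180, 350 and 5197 for the listed features and 128, 120, 141, 209 and 786 for the 92 dimmer unlisted features. For Cy5 the members' medians were 1378, 1233, 1428, 540 and 3029, against 8258 for the listed features at 50×. With both dyes averaged, 21 of the 80 members were above the listed median at 50×, and 55 were above the brightest of the dimmer unlisted features. With the 50× array left out of the mean, 143 unlisted features were above the lowest listed feature, 78 of the 80 members among them.

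The 54 other members had little Cy3 fluorescence below 50×. Their Cy3 values ranged from 110 to 255 at 0.1×, from 97.2 to 229 at 1×, from 111 to 281 at 5×, from 146 to 839 at 10× and from 654 to 7919 at 50×. Their Cy5 values ranged from 1046 to 1762 at 0.1×, from 370 to 1602 at 10× and from 920 to 11750 at 50×. In these members Cy5 exceeded Cy3 by a median of 8.89 times at 0.1×, 9.33 times at 1× and 8.95 times at 5×, but by 2.04 times at 10× and 1.68 times at 50×. The same 2 levels of the dye ratio were present in the listed features, at 7.99, 8.35 and 8.01 times on the 3 lower arrays and 1.64 and 1.81 times on the upper ones. Lower Cy5 at 10× than at 5× was thus shared by the members and the listed features, and with 1 array at 10× the concentration and the array cannot be told apart.

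Fluorescence reached the scanner ceiling, the highest value the scanner can write, only in members. This is in part set by the rule, since 1 value at the ceiling lifts a mean of 40 values over the bound. An unlisted feature with such a value is therefore always a member, and the study selected listed genes for a mean signal below saturation. Of the 3200 values of the members, 44 were at the ceiling, in 13 features, and no listed feature had any. All 13 were among the 20 brightest. In Cy5 at 50×, 33 values of 13 features were at the ceiling, and in 5 features all 4 spots were. These 5, named here after their values were seen, were features 8, 102, 198, 221 and 225, and for them Cy5 at 50× was at least 22.6, 21.2, 22.8, 40.9 and 47.3 times the value at 10×, bounds that rest on 1 array each. Cy3 at 50× held 1 value at the ceiling. A further 9 values of 4 features were at the ceiling in Cy5 at 0.1×, the lowest RNA concentration, and 1 value in Cy5 at 1×. Averaged over the arrays and dyes, the brightest member was at 41.8% of the ceiling. A mean that holds a value at the ceiling is a lower limit, and its SD is not a measured spread. This applies to 13 members in Cy5 at 50×, to features 8, 87, 118 and 198 in Cy5 at 0.1×, and to feature 8 in Cy5 at 1× and in Cy3 at 50×.

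Feature 8, the brightest member, had Cy3 fluorescence of 15485, 5916, 2672 and 4784 from 0.1× to 10× (SD 4423, 1265, 276 and 816, 4 spots) and at least 59806 at 50×. In Cy5 it had at least 64402 at 0.1×, where 3 of 4 spots were at the ceiling, at least 43665 at 1×, 8971 at 5× and 2897 at 10× (SD 2683 and 994 at the last 2), and all 4 spots were at the ceiling at 50×. Feature 198, the next brightest, had 16180, 2522, 952, 2118 and 26361 in Cy3 (SD 4863, 744, 140, 146 and 1935). Its Cy5 value was at least 61071 at 0.1×, where 3 of 4 spots were at the ceiling, then 21885, 5189 and 2876 at 1× to 10× (SD 17971, 1763 and 930), with the ceiling again in all 4 spots at 50×. Both features had high fluorescence at the lowest and at the highest concentration, with the lowest Cy5 value at 10× and the lowest Cy3 value at 5×. Their 4 spots at 1× in Cy5 did not agree among themselves. For feature 8 3 spots read 46102, 8501 and 54522 and 1 was at the ceiling, and for feature 198 they read 46502, 10715, 6567 and 23756.

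The 20 brightest members as a set also had high values at 0.1×. Their median Cy3 fluorescence was 1567, 1329, 798, 1572 and 26256 from 0.1× to 50×, and their median Cy5 fluorescence was 5874, 5401, 2526, 1256 and 46095. Cy3 was higher at 0.1× than at 10× in 11 of the 20, although the RNA differed 100-fold in the other direction, and in 34 of the 212 listed features. With both dyes averaged, 6 of the 20 had a ratio of 10× to 0.1× under 0.125, from 0.0223 to 0.124 as computed, while the other 14 had ratios of 0.250 to 1.71. For features 8, 87, 118 and 198, which are among the 6, the value at 0.1× was capped and the ratio is an upper limit. Among the listed features 5 of 212 were under 0.125. In these 6 members the median Cy5 fluorescence, with capped values as read, was 43152 at 0.1×, 14028 at 1×, 4070 at 5×, 1472 at 10× and 54146 at 50×, which is a decrease over the first 4 arrays. In the other 14 it was 4023, 4443, 2256, 1144 and 43382. The split at 0.125 was set after the values were seen, and it requires a value at 0.1× far above that at 10×. The decrease is therefore not independent of the split, and no array was repeated to show whether the split would return.

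In Cy3 the 1× array stood out for 2 members. Feature 87 had Cy3 fluorescence of 11345 ± 1815 (SD, 4 spots) at 0.1×, 110 ± 15.1 at 1× and 574 ± 143 at 5×, with 634 at 10× and 30541 at 50×. Its Cy5 fluorescence was at least 48582 at 0.1×, then 995, 2487 and 705, and at least 60762 at 50×, with 2 of 4 spots at the ceiling on the first and last array, so both dyes were low at 1×. Feature 244, named after its values were seen, had Cy3 fluorescence of 1743 ± 519, 128 ± 26.2 and 1552 ± 232 at 0.1×, 1× and 5×, and 2259 and 3656 at 10× and 50×. Its Cy5 fluorescence of 1559, 1384, 1463, 556 and 1950 had no such drop at 1×. All 4 spots of each feature took part, with Cy3 at 1× of 95 to 130 for feature 87 and 97 to 155 for feature 244. Cy3 at 1× was more than 3 times lower than at both 0.1× and 5× in these 2 features and in no other of the 384. By the same measure Cy5 at 10× was low in 9 members, 12 listed and 5 dimmer unlisted features.

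From 10× to 50× the RNA increased 5-fold, and the members' fluorescence, with both dyes averaged, was higher by a median of 6.35 times (SD 0.714 over 4 spot sets). The listed features had a median of 12.9 and the dimmer unlisted features 3.03. The ratio was below 5 in 31 members (38.8%), 21 listed features (9.91%) and 80 dimmer features (87.0%), and in 34.4% of all 384. It was above 20 in 16 members (20%), 61 listed features (28.8%) and 77 of all 384. Both shares of the members were thus near those of the whole array. The 50× array weighs most in the mean that chose the members, so this ratio is not independent of their choice and was not tested. The 3 sets of members differed widely, with medians of at least 29.0 for the 20 brightest, 13 of which were capped at 50×, 3.48 for the 6 high in Cy3 only and 5.35 for the other 54. Scaling each array and dye to a common sum over all features turned the members' median ratio to 0.469. After this scaling the ratio compares a feature's share of the summed fluorescence at 50× with its share at 10×.

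**Figure D2:**
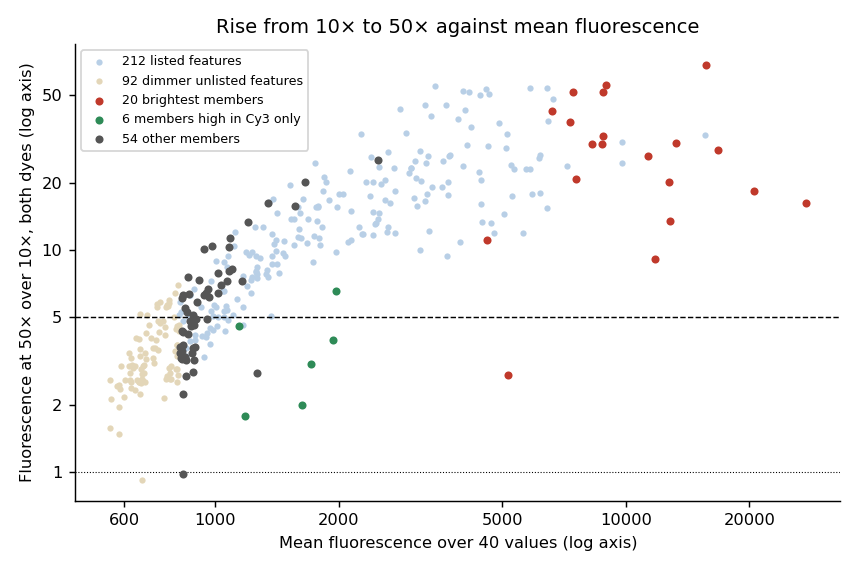
Ratio of fluorescence at 50× to that at 10× (both dyes averaged, log axis) against mean fluorescence over 40 values (log axis) for the 80 members, the 212 listed and the 92 dimmer unlisted features. The dashed line marks 5, the increase in RNA, and the dotted line marks 1. The 6 members high in Cy3 only (1.78 to 6.52) lie under most listed features of the same brightness, and feature 310 lies at 0.972.

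Feature 87 had the highest ratio as computed, at least 68.2, and 64.6 with its capped spots left out. The ratios of all 13 members with spots at the ceiling are lower limits, so the order of the highest ratios is not established. Feature 80, with no spot at the ceiling, had the next ratio as computed, 55.5 ± 23.6 (SD, 4 spots). In feature 80 Cy3 was 1072, 705, 366, 700 and 26453 and Cy5 was 4386, 2479, 1774, 692 and 50838. Both dyes were thus far lower on the first 4 arrays than at 50×. On every array they were above the listed medians, which were 184, 151, 180, 350 and 5197 in Cy3 and 1498, 1313, 1452, 582 and 8258 in Cy5. Feature 310 had the lowest ratio, 0.972 ± 0.384, and was the only member not brighter at 50× than at 10×. Its Cy3 fluorescence was 110, 195, 281, 839 and 706 (SD 30.9, 41.9, 48.4, 91.2 and 76.5), higher at each step to 10×, and its Cy5 fluorescence was 1112, 1557, 1784, 834 and 920. In 2 of its 4 spots Cy5 was higher at 50× than at 10×, so the order of the last 2 arrays was within the spread of the spots. Feature 74, at 1.78 ± 0.228, had the second lowest ratio and belongs to the set high in Cy3 only.

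Over the range from 0.1× to 10× the members' fluorescence as deposited did not follow the RNA, which increased 100-fold. The median ratio of 10× to 0.1×, with both dyes averaged, was 0.531 (SD 0.0628 over 4 spot sets), and it was above 1 in 3 members and in 3 listed features. The median of all 384 features was 0.536. The 2 dyes gave opposite directions, in the members as over the whole array. In Cy3 the median ratio was 1.68, with 63 members above 1, against 1.75 and 330 of all 384 features. In Cy5 it was 0.379, with 2 members above 1, against 0.388 and the same count of 2 over all features. Fluorescence was higher at each of the 4 steps in 11 members and 57 of all 384 features for Cy3, and in 0 of all features for Cy5. These values compare single arrays without normalization between them, so the concentration and the array cannot be told apart. With each array and dye scaled to a common sum, the members' median ratio of 10× to 0.1× was 1.57.

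Fitted against concentration by least squares, fluorescence gave an R2 above 0.9 in 27 of 80 members (33.8%), against 156 of 212 listed features (73.6%). R2 was below 0.8 in 26 members (32.5%) and 16 listed features (7.55%). Over all 384 features the shares were 47.9% above 0.9 and 31.8% below 0.8, with 87.0% of the dimmer unlisted features below 0.8. Capped values entered these fits as read. The counts depended on the 50× array, without which 5 members were above 0.9 and 72 below 0.8. That array also weighs most in the mean that chose the members, so R2 is not independent of their choice. The line rose in all but 1 member, and that member, feature 310, had an R2 near 0. The 6 bright members with high fluorescence at 0.1× all had an R2 below 0.8, from 0.342 to 0.746, whereas 12 of the other 14 bright members were above 0.9. The 6 were set apart by a value at 0.1× far above that at 10×, so this contrast is not independent of their definition. From Cy3 alone 69 members were above 0.9. The counts without the 50× array and from Cy3 alone were not taken over all 384 features. They are therefore not read as particular to the members. Feature 191, named after its values were seen, had the highest R2 of all 384 features, 0.996, and this rested on 1 spot. At 10× its 4 spots read 137, 124, 124 and 2414 in Cy3 and 391, 345, 363 and 5309 in Cy5. Without the brightest spot its R2 was 0.921 and its ratio of 50× to 10× was 15.7 in place of 2.77.

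On log scales, limma's test of the slope of fluorescence on concentration called a slope below 1 in 80 of 80 members. The same call was made in 100% of the 384 features, so it says nothing particular about the members, whose slopes were between −0.13 and 0.34 with a median of 0.12. Limma pooled the error of the slopes over the features, which gave them the same SE of 0.195. All features share the same 5 arrays, so this pooling treats shared departures of an array as independent. Without the 0.1× array the same test called 16 members and 82 of all 384 features. With each array centered on its median feature, limma called a slope other than 0 in 0 members and in 0 of all 384 features. An unadjusted p under 0.05 from this test was found in 0 members, 12 listed features and 13 of all 384 features.

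By the definition of their set, the 6 members high in Cy3 only had Cy3 fluorescence far above the median feature at low RNA. At 50×, which the definition did not use, their Cy3 fluorescence was near or below that of the listed features. Their Cy3 medians were 1442, 1168, 1317, 1477 and 3886, whereas the listed medians were 184, 151, 180, 350 and 5197. Their Cy5 medians of 1226, 1191, 1349, 522 and 2614 were below the listed medians of 1498, 1313, 1452, 582 and 8258 at each concentration. No listed or dimmer feature met the same definition, and the 6 make up 1.56% of the array. When Cy5 was not considered, Cy3 was as high in 20 members, of which 14 were among the 20 brightest, and in 12 listed features.

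Feature 74 had Cy3 fluorescence of 954, 1212, 1293, 1312 and 1769 from 0.1× to 50× (SD 65.4, 184, 179, 161 and 98.7). In Cy5 it had 1142, 1048, 1194, 472 and 1414 (SD 50.0, 93.5, 124, 58.8 and 233). Its Cy3 fluorescence therefore less than doubled over a 500-fold range of RNA, and it lay above the listed median on the first 4 arrays and below it at 50×. Feature 355 had Cy3 values of 1352, 1124, 1360, 1775 and 4117 (SD 138, 124, 189, 259 and 303) and Cy5 values of 1271, 1161, 1368, 560 and 2992. Apart from feature 244 at 1×, Cy3 in the set stayed between 580 and 2259 at 0.1× to 10×, as the plot of the 6 features shows.

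**Figure D3:**
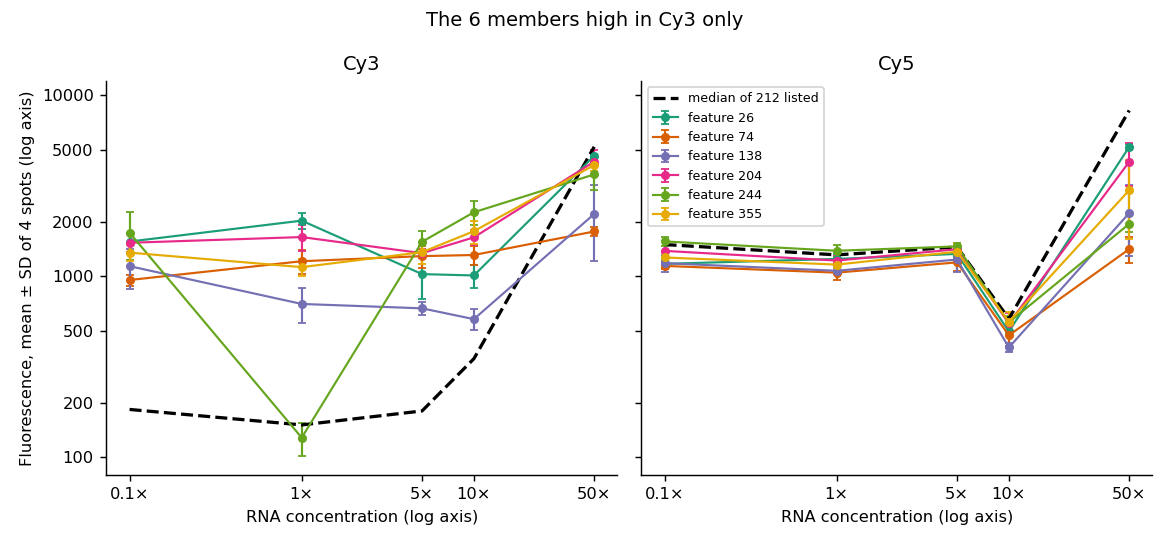
Fluorescence (mean ± SD of 4 spots, log axis) of the 6 members high in Cy3 only against RNA concentration (log axis), in Cy3 (left) and Cy5 (right). The dashed line is the median of the 212 listed features, which the 6 exceed in Cy3 at 0.1× to 10× except for feature 244 at 1× (128), and which they lie near or under in Cy5.

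The Cy3 and Cy5 values of a concentration were taken to share an array, from the sample titles and column names. The methods of the study state a loop design, in which the 2 labeled forms of a sample go on different arrays. The test of the dye ratio rests on Cy3 and Cy5 sharing an array, which was not checked. The rule averaged the same Cy3 and Cy5 values, and a feature could become a member through 1 dye, so the counts of members called are a description and not independent of their choice. After loess within each array, limma called a log2 ratio of Cy5 to Cy3 other than 0 in 10 of 80 members (12.5%) over the 5 arrays, where 6.77% of all 384 features were called. The 5 arrays differ in concentration, so the error of this ratio also holds any change of the ratio with concentration. In 9 of the 10 Cy3 was relatively higher, as in 5.21% of all features, and in 1 Cy5 was, as in 1.56%. Among the listed features 16 of 212 were called, and among the dimmer unlisted features 0 of 92. The medians of the log2 ratio were −0.01 for the members and 0.02 for the listed features. An unadjusted p under 0.05 was found in 32 members. The same count was not taken over all 384 features, so it is not read as particular to the members. All 6 members high in Cy3 only were called. Because their definition used the same dye values, these calls are not independent of it. The other calls were 3 of the 20 brightest members and 1 of the other 54.

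Features 74, 355 and 244 belong to the set high in Cy3 only, which was defined by the same dye values. Their p-values are therefore a description and not independent of that definition. Feature 74 had the largest ratio, at −1.95 (SE 0.19, limma adjusted p = 0.00187), and on the single arrays it had −2.24, −2.54, −2.28, −1.53 and −1.15 from 0.1× to 50×. Feature 355 was at −1.91 (SE 0.18, limma adjusted p = 0.00187), with −2.47, −2.28, −2.11, −1.58 and −1.13. Both had relatively more Cy3 on 5 of 5 arrays, by less at the higher concentrations. As deposited, without loess, the Cy5 to Cy3 log2 ratio of feature 74 was 0.26, −0.21, −0.11, −1.48 and −0.32, so the dyes were nearly equal in feature 74 on the 3 lower arrays, where the Cy5 of the median feature was 8.35, 8.64 and 8.34 times its Cy3. Feature 244 was at −1.59 (SE 0.35, limma adjusted p = 0.0447), with relatively more Cy3 on 4 of 5 arrays and a ratio of 0.23 at 1×. Feature 244 kept its call in 2 of 9 alternatives.

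Feature 319 was the only member called with relatively more Cy5, at 0.42 (SE 0.087, limma adjusted p = 0.0444) and in the same direction on 5 of 5 arrays. The call was lost in 5 of 9 alternatives, over which the adjusted p from limma went up to 0.136. Its Cy5 fluorescence was 1762, 1835, 1547, 560 and 1481, higher at 0.1×, 1× and 5× than at 50×, and its Cy3 fluorescence was 134, 140, 152, 234 and 654. Leaving out 1 array at a time left 4 to 7 members called, and 6 to 15 of all 384 features. The 4 remaining without the 5× array were among the original 10. Features 74 and 355, and features 138 and 19, which are named after their values were seen, kept their calls in 8 of 9 alternatives. The exception was the ratio without normalization, which compares the dyes as scanned. It called relatively more Cy5 in 71 members, in all 212 listed features and in 375 of all 384 features. Of the other members called, feature 204 kept its call in 7 of the 9, features 26 and 45 in 4 and feature 115 in 1.

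**Figure D4:**
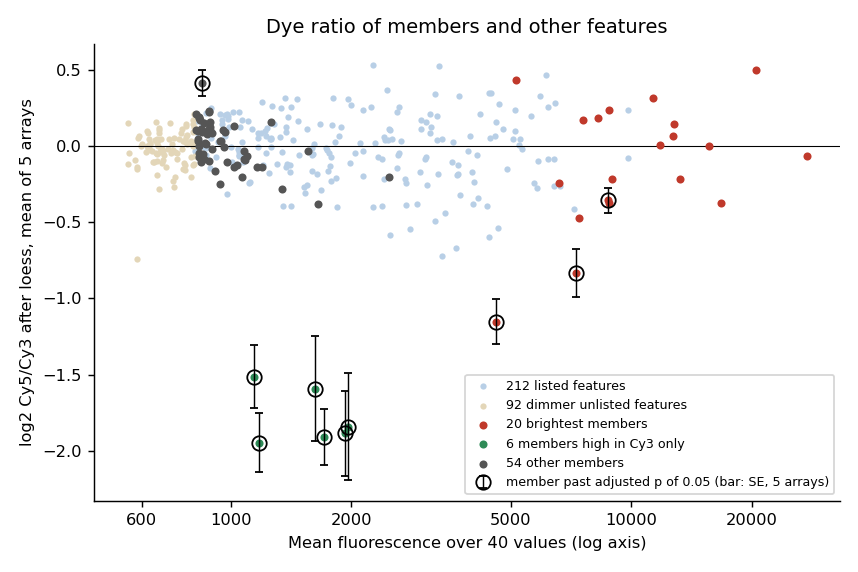
log2 ratio of Cy5 to Cy3 after loess (mean of 5 arrays) against mean fluorescence over 40 values (log axis) for the 80 members, the 212 listed and the 92 dimmer unlisted features. Circles mark the 10 members past an adjusted p of 0.05, with bars of 1 SE. The 6 members high in Cy3 only lie between −1.95 and −1.51, below every other feature of the array.

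The 4 spots of a member had a median CV of 13.8% (range over members 7.43% to 36.5%), against 14.7% in the listed and 11.9% in the dimmer unlisted features. The 20 brightest members were the most variable set, at a median of 24.2%, and the 6 high in Cy3 only had 11.9%. In Cy5 at 50× the members' median CV was 33.3%, above the 9.04% to 12.9% of Cy5 on the other 4 arrays and near the 33.0% of the listed features. The spread among spots at the ceiling was not measured, because their values are capped.

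Part of this spread followed the place of the spot on the slide. The features are printed in 8 rows and 48 columns, and this block is repeated 4 times down the slide, which gives spots 1 to 4. At 50×, with both dyes averaged, the median ratio of spot 1 to spot 4 was 0.991 in the 22 members of columns 1 to 12, 0.634 in the 25 of columns 13 to 24, 1.04 in the 11 of columns 25 to 36 and 2.34 in the 22 of columns 37 to 48. In the last 12 columns spot 1 was brighter in 22 of 22 members, by 1.38 to 5.96 times. The listed features had 0.945, 0.608, 1.17 and 2.47 in the same columns. At 10× the members of the last 12 columns had a median of 0.944. The members' median ratio of 50× to 10× also differed by place, with 3.53 in columns 1 to 12 and 10.4 in columns 37 to 48. The listed features had 7.57 and 20.8 in the same columns, and the dimmer unlisted features had 2.71 and 4.12. The part of the slide position in the ratios of single members was not tested.

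**Figure D5:**
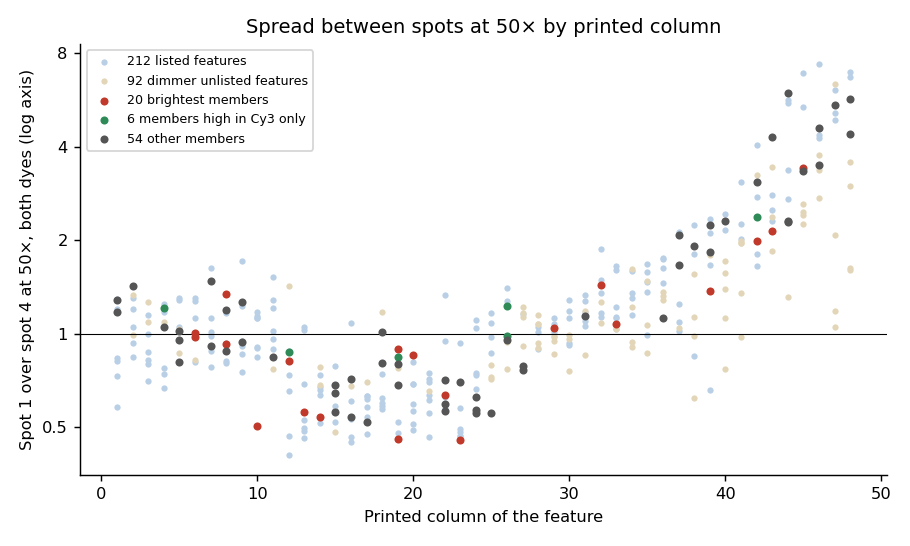
Ratio of spot 1 to spot 4 at 50× (both dyes averaged, log axis) against the printed column of each feature, for the 80 members, the 212 listed and the 92 dimmer unlisted features. Members of columns 37 to 48 lie at 1.38 to 5.96 and those of columns 13 to 24 have a median of 0.634, with listed features spread in the same way.

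Taken over the 10 combinations of dye and array, the log2 values of the members mostly had the shape of the listed features. Pearson's r with the median listed profile was 0.945 for the median member and was below 0.7 in 6 members, 0 listed features and 3 of the 92 dimmer unlisted features, whose median was 0.883. This is a description, since the 10 points come from 5 arrays and the listed features themselves give the reference profile. Of the 6 members below 0.7, 5 were high in Cy3 only, with feature 74 the lowest at 0.328, and the sixth was feature 310 at 0.679. The 54 other members had a median of 0.960, and the 6 bright members with high fluorescence at 0.1× had 0.735. Both sets of 6 were defined by values that enter r, so their low r is not independent of their definitions.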

How the data were processed

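The authors scanned the slides with ScanArray Express, quantified them with Imagene, and deposited the intensity of each spot in Cy3 and Cy5, with no background value and no normalization between arrays. The 5 per-array records hold the same table, so 1 was read. A deposited table of sum-normalized intensity, whose columns total 249996 to 250008, served only to say which features are listed. The dyes of an array were paired by the sample titles and column names, while the methods state a loop design. The dye test rests on this pairing. Metabolic genes and negative controls are not marked, so the inclusion criteria were not re-applied.

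Fluorescence is the mean of 4 spots. R2 is from least squares on the linear scale. Limma 3.58.1 in R 4.3.3 (lmFit, eBayes, Benjamini-Hochberg at 0.05 over 384 features) tested the log2 Cy5/Cy3 ratio against 0 after loess (span 0.3, 4 iterations) and the log-log slope against 1. Other values used Python 3.11.15, numpy 2.4.6 and pandas 2.3.3. On simulated data of 384 features the dye test with loess recovered 40 of 40 changed features and called 3 others, and the slope test recovered 200 of 200 and called 5 others. The simulated noise was independent, with no departure shared by an array, no capped values and dye effects equal on all arrays. The real arrays differ in these points, so the counts show that the code runs as intended and not its error rate here.

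The members and lists were chosen with earlier results of these data known. Members are named as the 2 brightest, the 2 dimmest with the nearest feature below the bound, the 2 highest and 2 lowest 50×/10× ratios, and up to 2 of the largest called dye differences in each direction with 1 sign on all arrays. Alternatives were each dye alone, the median of the spots, a common sum, log2 scales, a higher bound, spots at the scanner ceiling left out, each spot or array left out, and other normalizations. No replicate arrays exist among these files, and intensities give no counting error.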

Additional observations from a re-analysis of the deposited data

How the results depend on the processing

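No paired analysis was possible because each concentration has 1 array, apart from the dyes. These were compared within arrays as paired by the titles and column names, which was not checked. Where a value moved, the cause was not tested. The number of members, 80, was 73 to 143 with an array left out (143 without 50×) and 78 to 88 with a spot left out. The median ratio of 50× to 10×, 6.35, was 7.06 from Cy3 only and 0.469 with a common sum. That of 10× to 0.1×, 0.531, was 1.68 from Cy3 only, 0.379 from Cy5 only and 1.57 with a common sum. Members with R2 above 0.9, 27, were 69 from Cy3 only, 12 from Cy5 only, 5 with a common sum, 0 on log2 scales and 5 to 70 with an array left out (41 without 0.1×, 70 without 10×, 5 without 50×). Members with R2 below 0.8, 26, were 5, 51, 71 and 80 in the same settings and 9 to 72 with an array left out (17, 9 and 72). In these settings R2 was not counted over all 384 features, so its changes are not read as particular to the members. The median CV, 13.8%, was 15.1% from Cy3 only, 11.8% from Cy5 only and 12.5% to 14.6% with an array left out. Members with a dye difference, 10, were 71 without normalization, where 375 of all 384 features were called. They were 5 with the median of the spots, where 6 of all 384 were called. With an array left out they were 4 to 7 (6 without 0.1×, 4 without 5×), and 6 to 15 of all 384. Members with a slope other than 1, 80, were 0 with arrays centered (slope against 0) and 16 to 80 with an array left out, 16 without 0.1×. Over all 384 features the count was 0 with arrays centered and 82 without 0.1×. Without normalization the log2 dye ratio turned to 0.29 for feature 19, 0.74 for 45, 1.15 for 115, 0.21 for 138 and 0.051 for 244. With a common sum the ratio of 50× to 10× of feature 74 was 0.130.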
